A study of Mus musculus with 12 samples.

Results

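Interleukin-10 (IL-10), interleukin-15 (IL-15) and the receptor chains through which macrophages read IL-10, IL-4, IL-13, IL-15 and IL-7 were followed in macrophages with and without intact Fes, a cytoplasmic tyrosine kinase gene of myeloid cells. The set holds 10 genes: the ligands Il10, Il19 and Il15 and the receptor chains Il10ra, Il10rb, Il15ra, Il2rg, Il4ra, Il13ra1 and Il7r. They were picked by symbol as members of these cytokine systems, with no measured value in the rule but with earlier results of these data known. All 10 were found among the 55487 genes of the tables. All 10 also passed a filter on low counts that kept 15801 genes for testing. Il19 passed it only through the stimulated libraries, so its difference between treatments was fixed by that filter.

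The cells were bone-marrow-derived macrophages, grown from mouse marrow in macrophage colony-stimulating factor (M-CSF), and polyadenylated RNA was sequenced. Marrow came from 3 Fes+/+ mice (wild type) and 3 Fes-/- mice, and the cells of each received PBS or, for 4 hours, LPS at 1 µg/mL (lipopolysaccharide, the bacterial ligand of the receptor TLR4). The treatment text calls the PBS cells untreated, and the strain, age and sex of the mice and the nature of the Fes- allele are not given in the sources used here. This makes 4 groups of 3 libraries, called wild-type PBS, wild-type LPS, Fes-/- PBS and Fes-/- LPS, all with 1 batch date. M-CSF was present in every group, so no group shows unconditioned cells.

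IL-10 is the main cytokine by which a macrophage restrains its own inflammatory output. It binds the ligand-specific chain IL-10Rα, which pairs with the shared chain IL-10Rβ and signals through JAK1, TYK2 and STAT3. IL-15 is usually presented in trans on IL-15Rα to lymphocytes that carry the IL-2Rβ chain and the common gamma chain, and it sustains memory CD8+ T cells and NK cells. The common gamma chain, encoded by Il2rg, also completes the receptors of IL-2, IL-4, IL-7, IL-9 and IL-21. IL-4 signals in macrophages through IL-4Rα paired with either the common gamma chain (type I receptor) or IL-13Rα1 (type II receptor, which also binds IL-13), and through STAT6.

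The 12 libraries held 61016300 to 101027000 counts. Levels are given as TPM, a share of transcripts corrected for gene length, which allow genes to be compared with each other. Differences are log2 fold changes from edgeR's quasi-likelihood test on the raw counts, scaled between libraries by TMM factors, with their standard error (SE), and every adjusted p is the Benjamini-Hochberg value over all tested genes, called under 0.05. CPM is the count relative to the TMM-scaled library size. The targeted gene separated the genotypes, with Fes at 179 ± 10.2 and 68.6 ± 2.05 CPM (SD, n = 3) in wild-type and Fes-/- macrophages under PBS and at 162 ± 9.77 and 33.8 ± 1.16 CPM under LPS. All 8 macrophage markers examined were at 1 CPM or more in every group, with a summed level of 9786 to 15952 CPM per library.

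Of the 9 members that met the filter through the libraries of either treatment, all except Il19, LPS raised 8 and lowered Il7r in wild-type macrophages, and the same counts were found in Fes-/- macrophages. Among all tested genes, 34.6% were called higher and 38.8% lower with LPS in wild type, and 34.3% and 38.9% in Fes-/- macrophages, so a call by itself was common (73.4% and 73.2%). The median log2 change of these 9 members was 3.62 in wild type and 3.46 in Fes-/- macrophages, beside a median over all tested genes of -0.07 and -0.08. No member was called between genotypes under PBS or under LPS, and none in the interaction of LPS and genotype, which asks whether LPS acted differently in the 2 genotypes. The share of all tested genes called for genotype was 0.0823% in PBS libraries (up in Fes-/- for 0.0506%, down for 0.0316%), 0.108% in LPS libraries (0.0696% and 0.038%) and 0.019% in the interaction (0.00633% and 0.0127%), so few calls were made there at all.

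These LPS changes depend on how libraries were scaled, because the TMM factors were 1.35 to 1.40 in PBS libraries and 0.71 to 0.74 in LPS libraries. Without these factors the median log2 change of all genes moved to -0.98 in wild type and -1.01 in Fes-/- macrophages, and on log2(TPM + 1) to -0.67 and -0.72. The split of calls moved from 5464 higher and 6137 lower in wild type to 2579 and 10828 without factors and to 2513 and 10932 on log2(TPM + 1). The Fes-/- split moved from 5424 and 6150 to 2510 and 11064 and to 2445 and 11201. Of the members, Il10rb reversed under these settings, as described below, and the other 8 members with a fitted fold kept their direction and their call under every scaling tried.

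**Figure D1:**
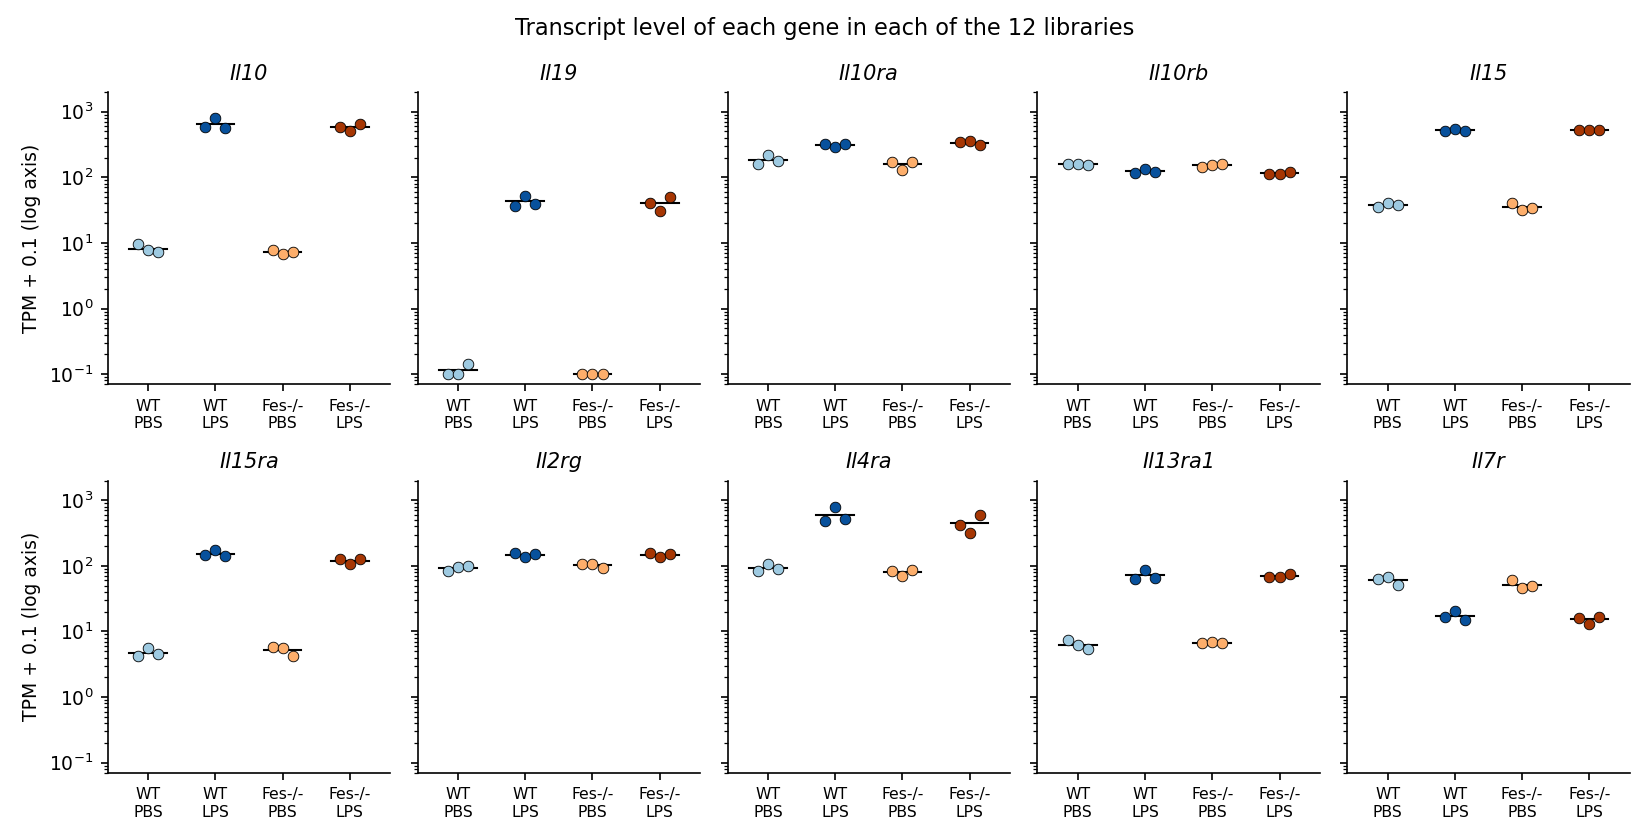
Each panel shows 1 gene, with TPM + 0.1 on a log axis for the 3 libraries of each group as points and the group mean as a line; WT is wild type. Il10, Il19, Il15, Il15ra and Il13ra1 form distant PBS and LPS levels in both genotypes, Il7r is lower with LPS, and Il10rb is slightly lower with LPS on this scale although it was called higher on TMM-scaled counts.

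Il10 was among the lowest members at rest and had the highest mean level after LPS. In replicates 1, 2 and 3 its TPM was 9.39, 7.68 and 7.21 in wild-type PBS and 586, 812 and 569 in wild-type LPS. The Fes-/- values were 7.84, 6.80 and 7.19 under PBS and 583, 504 and 653 under LPS. PBS and LPS libraries lay far apart in each genotype, while the genotypes overlapped under both treatments. The log2 change with LPS was 7.28 ± 0.18 in wild type (155-fold, 95% interval 118 to 204, adjusted p = 2.63e-13) and 7.29 ± 0.18 in Fes-/- macrophages (157-fold, adjusted p = 2.66e-13). The difference between these responses was 0.02 ± 0.21, with a 95% interval from -0.44 to 0.47.

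Il19 encodes an IL-10 family cytokine that acts through the IL-20 receptor rather than the IL-10 receptor. It was close to absent at rest, with 0, 0 and 1 counts in wild-type PBS and 0 in each Fes-/- PBS library. After LPS it reached 36.7, 52.2 and 39.8 TPM in wild type and 40.6, 30.5 and 50.3 TPM in Fes-/- macrophages, and the genotypes overlapped. In wild type 2852 counts with LPS stood against 1 with PBS, a ratio of 5702 after scaling by library size, with a 95% counting interval from 1023 to 2.2531e+05. In Fes-/- macrophages 3330 counts stood against 0, at least 1688-fold higher against a floor of 3 counts over the group. Intervals and floors on counts cover counting error only. Between genotypes under LPS the log2 difference was -0.10 ± 0.19 (adjusted p = 0.949).

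The ligand-binding receptor chain Il10ra had the highest mean level at rest, overlapping Il10rb, and rose further with LPS. Its TPM was 158, 220 and 180 in wild-type PBS and 320, 287 and 327 in wild-type LPS. The Fes-/- values were 174, 129 and 173 under PBS and 343, 359 and 306 under LPS. Each LPS library lay above each PBS library, and the genotypes overlapped. The log2 change was 1.69 ± 0.14 in wild type (3.22-fold, adjusted p = 5.17e-08) and 2.06 ± 0.14 in Fes-/- macrophages (4.16-fold, adjusted p = 6.54e-09). Their difference, 0.37 ± 0.19, was not called (unadjusted p = 0.0742, adjusted p = 1.00).

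Il10rb, the chain shared by the receptors of IL-10, IL-22 and type III interferons, is the member whose direction depends on scaling. Its TPM was 161, 159 and 152 in wild-type PBS and 117, 134 and 120 in wild-type LPS, and 144, 152 and 160 against 113, 111 and 122 in Fes-/- macrophages. On TPM each LPS library was therefore lower than each PBS library of its genotype. With TMM-scaled counts it rose by 0.59 ± 0.08 in wild type (1.51-fold, adjusted p = 8.38e-06) and by 0.58 ± 0.08 in Fes-/- macrophages (1.49-fold, adjusted p = 1.18e-05), whereas it was called lower without factors (-0.32 and -0.36) and on log2(TPM + 1) (-0.35 and -0.39). Subtracting the median of all tested genes cancels any factor per library, so it gives nearly the same value with TMM, RLE or no factors by construction, 0.67 in wild type and 0.66 in Fes-/- macrophages with TMM. On log2(TPM + 1) Il10rb lay above the median gene by 0.33 and 0.32.

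The ratio of Il10ra to Il10rb does not depend on scaling between libraries, because both levels come from the same library. It was 1.18 ± 0.202 (SD, n = 3) in wild-type PBS and 2.53 ± 0.333 in wild-type LPS, and 1.05 ± 0.181 and 2.93 ± 0.373 in Fes-/- macrophages. The ligand-specific chain thus went from near parity with the shared chain to a clear excess in both genotypes, with no overlap between PBS and LPS libraries. An exact two-sided permutation test of 3 libraries against 3 gave p = 0.1 for each genotype, the smallest it can give (adjusted p = 0.171 over the 12 ratio tests).

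IL-15 and its private receptor chain rose together. Il15 had 35.2, 39.9 and 37.3 TPM in wild-type PBS and 517, 550 and 512 in wild-type LPS. In Fes-/- macrophages it had 41.1, 31.3 and 34.2 TPM under PBS and 524, 532 and 519 under LPS, so the stimulated libraries of both genotypes fell in a narrow band. The log2 change was 4.75 ± 0.11 in wild type (27.0-fold, adjusted p = 3.05e-14) and 4.86 ± 0.11 in Fes-/- macrophages (29.1-fold, adjusted p = 2.84e-14). Between genotypes under LPS the difference was -0.02 ± 0.09, with a 95% interval from -0.21 to 0.17.

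Il15ra had 4.12, 5.40 and 4.49 TPM in wild-type PBS and 145, 172 and 140 in wild-type LPS. Fes-/- macrophages had 5.70, 5.58 and 4.07 TPM under PBS and 127, 106 and 127 under LPS. The genotypes overlapped under PBS but not under LPS, where all 3 Fes-/- libraries were below all 3 wild-type libraries. For such a separation of 3 libraries from 3, here and below, an exact two-sided permutation test can give no p under 0.1. The share of all tested genes that separate between genotypes in this way was not counted. The log2 change with LPS was 5.97 ± 0.15 in wild type (62.8-fold, adjusted p = 1.18e-13) and 5.53 ± 0.15 in Fes-/- macrophages (46.2-fold, adjusted p = 1.87e-13).

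Il15ra was the only member with an unadjusted p under 0.05 between genotypes, and only under LPS and in the interaction, where 6.52% and 2.94% of all tested genes had such a p. Its stimulated level in Fes-/- macrophages was 22.1% lower than in wild type, with a 95% interval of 7.08% to 34.7% lower (log2 -0.36 ± 0.12, unadjusted p = 0.00885, adjusted p = 0.696). Over the alternatives the log2 difference ranged from -0.42 to -0.25 and the adjusted p from 0.0554 to 1.00, so the difference kept its direction and was called in none of them. The smallest difference came without wild-type LPS replicate 2, the highest wild-type library. The difference between the LPS responses was -0.44 ± 0.18 (unadjusted p = 0.0262, adjusted p = 1.00).

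The promoter stretches of Il19 and Il15ra are shown because these genes went from near 0 and from about 5 TPM to a clear LPS level, and because 6 of the 10 members have a promoter sequence in the RefSeq-derived table used (GRCm38.p6), with 2 start sites for Il15ra and so 7 windows. The motifs searched on both strands in the 250 bases before each start were GAAANNGAA (core of the interferon-stimulated response element), TTCNNNGAA (STAT), GGGNNTTTC and GGAAANTCC (NF-kB type), TGANTCA (AP-1) and TGACGTCA (cyclic AMP response element). Each stretch runs 5′ to 3′ on the strand of the gene from 240 to 11 bases before the start, with matches in capitals. The Il19 stretch is chr1:130940126-130940355, minus strand, and the Il15ra stretch, of its first start site, is chr2:11705053-11705282, plus strand.
Il19: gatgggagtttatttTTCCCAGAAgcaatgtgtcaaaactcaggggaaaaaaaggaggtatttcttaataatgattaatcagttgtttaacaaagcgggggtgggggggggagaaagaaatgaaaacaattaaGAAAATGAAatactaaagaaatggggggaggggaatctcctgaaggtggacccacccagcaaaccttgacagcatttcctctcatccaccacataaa
Il15ra: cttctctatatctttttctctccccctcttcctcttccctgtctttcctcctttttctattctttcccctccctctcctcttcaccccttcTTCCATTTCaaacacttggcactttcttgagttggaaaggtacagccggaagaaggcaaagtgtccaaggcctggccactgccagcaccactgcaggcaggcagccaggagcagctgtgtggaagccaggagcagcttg
In Il19 the capitals mark a STAT match, 225 to 217 bases before the start, and an interferon response match, 107 to 99 bases before it. In Il15ra they mark an interferon response match on the opposite strand, 149 to 141 bases before the start. The interferon response motif was found in 7.13% and the STAT motif in 7.02% of all 32851 promoter windows of this length. The only other matches in the 7 windows were a STAT match in Il7r and an AP-1 match before the second Il15ra start (6.75% of all windows). Il13ra1, which rose from 6.21 to 71.7 TPM in wild type, also has a window, which held no match and is not printed. Each printed stretch thus holds a match, and low level at rest alone does not set the choice. None of the matches overlapped another. The 2 NF-kB type patterns searched and the cyclic AMP response element had no match in the 7 windows, with shares of 3.72%, 1.07% and 1.55% over all windows. Other forms of NF-kB sites were not searched, so their absence from these windows is not shown. A match describes the letters of the window and is not a measured binding site.

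The common gamma chain Il2rg, which is needed by every receptor of the IL-2 family, was moderately abundant in every group. Its TPM was 83.2, 94.9 and 99.2 in wild-type PBS and 155, 138 and 153 in wild-type LPS, and 107, 108 and 93.5 against 156, 137 and 149 in Fes-/- macrophages. It rose by 1.63 ± 0.08 in wild type (3.09-fold, adjusted p = 1.54e-10) and by 1.499 ± 0.08 in Fes-/- macrophages (2.83-fold, adjusted p = 3.75e-10). Il15ra started at 0.0505 ± 0.00591 of the Il2rg level in wild-type PBS and 0.0495 ± 0.00518 in Fes-/- PBS libraries. With LPS the ratio reached 1.03 ± 0.187 in wild type and 0.812 ± 0.0367 in Fes-/- macrophages, where the genotypes did not overlap (log2 difference -0.33, exact permutation p = 0.1, adjusted p = 0.171).

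**Figure D2:**
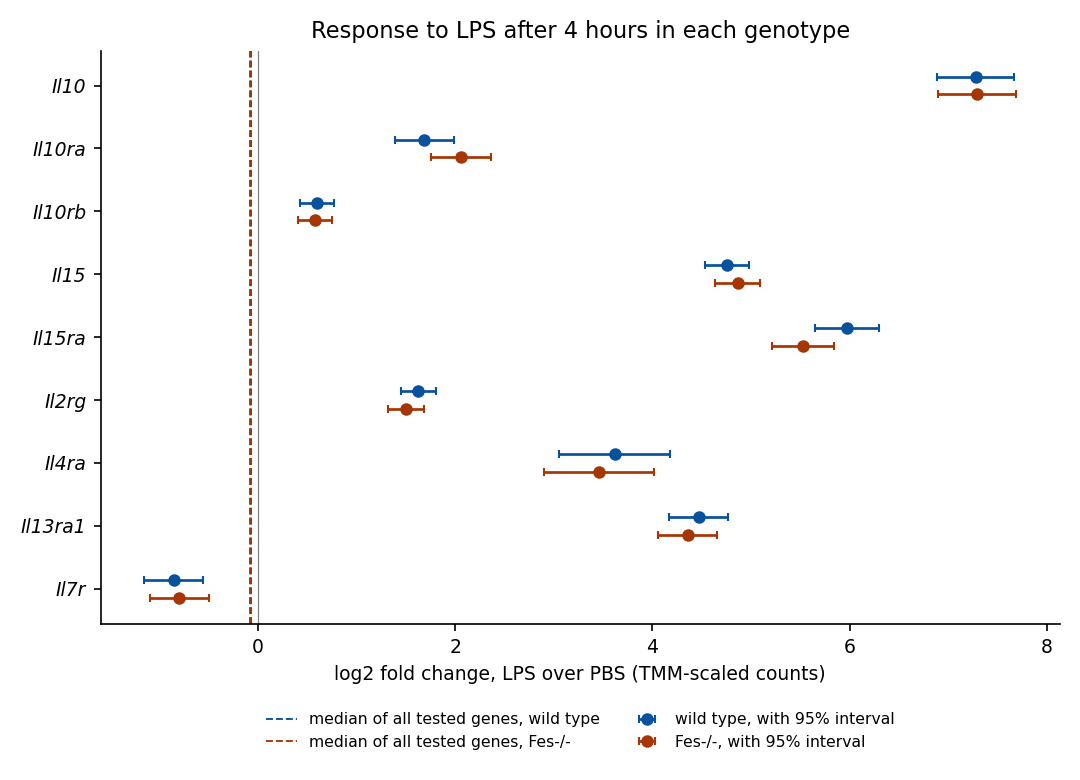
Points give the log2 fold change of LPS over PBS for 9 genes in wild-type (blue) and Fes-/- (brown) macrophages, bars the 95% interval, and dashed lines the median of all tested genes; Il19 is left out because its PBS counts were 0 or 1. Il10 lies highest at 7.28 and 7.29, Il7r is the only gene below the median line, and Il10rb, at 0.59 and 0.58 here, was called lower without TMM factors and on TPM.

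The chains that read IL-4 and IL-13 rose as well. Il4ra, the signalling chain of both IL-4 receptor types, had 84.2, 106 and 89.7 TPM in wild-type PBS and 477, 793 and 515 in wild-type LPS. In Fes-/- macrophages it had 83.2, 69.0 and 86.7 TPM under PBS and 426, 318 and 596 under LPS. Its SE was the largest of the 9 members with a fitted fold, and the log2 change was 3.62 ± 0.26 in wild type (12.3-fold, adjusted p = 7.09e-08) and 3.46 ± 0.26 in Fes-/- macrophages (10.99-fold, adjusted p = 1.03e-07).

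Il4ra lies on chromosome 7 (GRCm38 125552120 to 125579474), the chromosome of Fes (80377756 to 80387946). Its mean level was lower in Fes-/- libraries under PBS (-0.28 ± 0.23, adjusted p = 0.975) and LPS (-0.43 ± 0.23, adjusted p = 0.805), with overlapping libraries, and neither difference was called. The 95% interval under LPS ran from -0.94 to 0.08. Of the alternatives, 1 called it under LPS, the fit that kept all low-count genes (-0.40, adjusted p = 0.013), which called 358 genes in all where the main test called 17. Without wild-type LPS replicate 2 the difference was -0.16, and without Fes-/- LPS replicate 3 it was -0.68, so single libraries set its size.

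Il13ra1, the partner of IL-4Rα in the type II receptor, had 7.26, 6.05 and 5.32 TPM in wild-type PBS and 63.4, 86.3 and 65.6 in wild-type LPS. Fes-/- macrophages had 6.45, 6.80 and 6.67 TPM under PBS and 67.1, 66.7 and 74.3 under LPS. It rose by 4.47 ± 0.14 in wild type (22.2-fold, adjusted p = 9.52e-13) and by 4.36 ± 0.14 in Fes-/- macrophages (20.5-fold, adjusted p = 1.18e-12). The ratio of Il2rg, the type I partner, to Il13ra1 was 15.3 ± 3.61 in wild-type PBS and 2.12 ± 0.457 in wild-type LPS. In Fes-/- macrophages it was 15.5 ± 1.336 and 2.13 ± 0.172. The 2 partners of IL-4Rα therefore came much closer in transcript level with LPS in both genotypes, with no overlap between treatments (exact permutation p = 0.1, the smallest possible, adjusted p = 0.171).

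**Figure D3:**
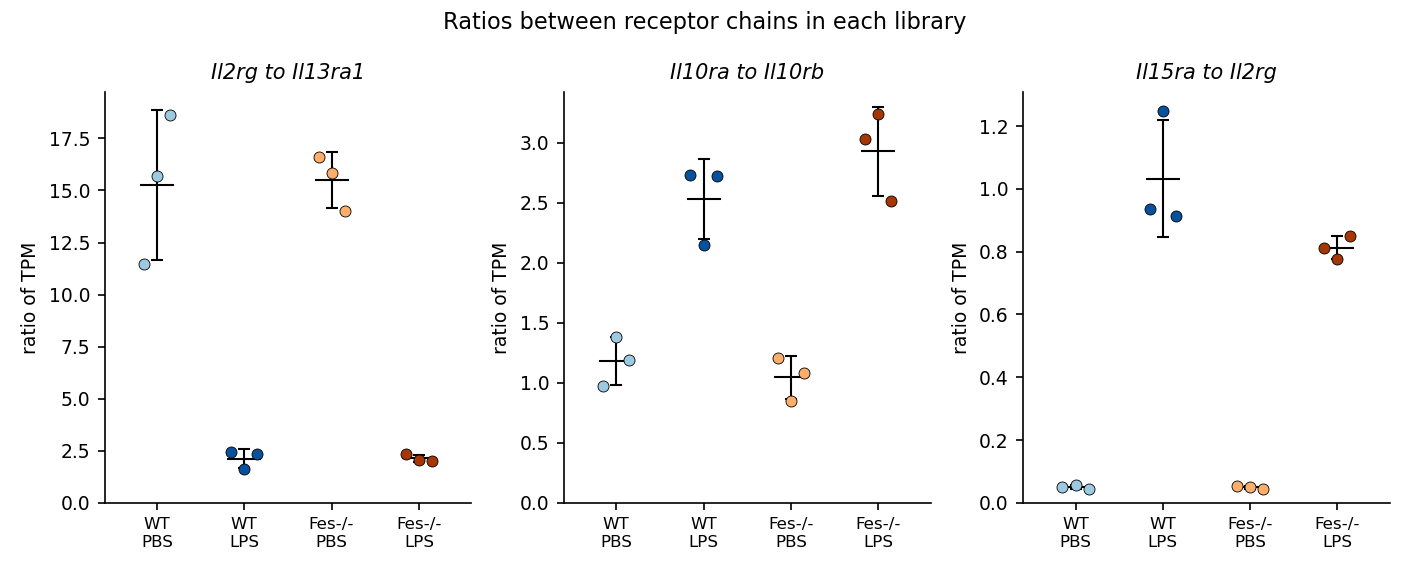
Each panel gives the ratio of TPM of 2 receptor chains per library as points, with the group mean and SD (n = 3) as bars. Il2rg to Il13ra1 is 15.3 and 15.5 under PBS and 2.12 and 2.13 under LPS, Il10ra to Il10rb is higher with LPS in both genotypes, and Il15ra to Il2rg under LPS is 1.03 in wild type and 0.812 in Fes-/- macrophages.

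Il7r encodes IL-7Rα, a chain best known from lymphocytes, which pairs with the common gamma chain for IL-7 and with the product of Crlf2 for thymic stromal lymphopoietin (TSLP). It was the only member called lower with TMM factors, and Il10rb was also called lower without factors and on TPM. Its TPM was 63.3, 66.6 and 51.3 in wild-type PBS and 16.6, 20.5 and 14.9 in wild-type LPS, and 60.0, 46.1 and 49.1 against 15.9, 13.1 and 16.4 in Fes-/- macrophages. On TMM-scaled counts it fell by 0.86 ± 0.14 in wild type, to 55.2% of the PBS level (adjusted p = 6.52e-05), and by 0.80 ± 0.14 in Fes-/- macrophages, to 57.5% (adjusted p = 0.000124). The fall was larger without TMM factors and on TPM, reaching -1.80 in wild type and -1.77 in Fes-/- macrophages on log2(TPM + 0.1).

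In bulk RNA fewer cells of a type and less RNA per cell cannot be told apart. The summed level of the 10 T, NK and innate lymphoid markers was also lower with LPS: libraries ranged from 13.6 to 23.7 CPM in wild-type PBS, 2.63 to 4.83 in wild-type LPS, 12.3 to 15.2 in Fes-/- PBS and 2.40 to 3.53 in Fes-/- LPS. Rora and Cd4 were the only ones with a group mean of 1 CPM or more. Rora made up most of the sum under PBS, at 13.4 CPM against 1.15 with LPS in wild type and 11.5 against 1.73 in Fes-/- macrophages. Gata3 and Cd8a went the other way in both genotypes, with group means of 0.194 CPM or less. Cd3d, Cd3e and Cd3g had 4, 1 and 1 counts over the 12 libraries, and Ncr1 had 0, which allows up to 0.00346 CPM. The 6 B cell markers summed to 16.2 to 43.7 CPM in wild-type PBS, 5.14 to 11.5 in wild-type LPS, 18.9 to 33.4 in Fes-/- PBS and 5.01 to 8.05 in Fes-/- LPS. Of them Ighm and Cd79b were the 2 at 1 CPM or more. Pax5 and Ms4a1 went the other way in both genotypes, Pax5 from 0.0151 to 0.355 CPM in wild type and from 0.0233 to 0.388 in Fes-/- macrophages. The part of such cells in the fall of Il7r was not tested. Summed levels of 5 stromal markers were higher with LPS, at 0.413 to 1.07 CPM in wild-type PBS, 7.78 to 13.02 in wild-type LPS, 0.642 to 1.28 in Fes-/- PBS and 12.6 to 15.4 in Fes-/- LPS. Pdgfrb was the marker at 1 CPM or more with LPS and made up most of the sum there. Its group means were 10.1 CPM in wild-type LPS and 12.6 CPM in Fes-/- LPS. With TMM factors 2 of the 5 were called higher with LPS and 3 were not called in each genotype. The part of stromal cells in the members that rose was not tested.

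Ordered by mean TPM, Il10 and Il15 stood below Il10ra, Il10rb, Il4ra, Il2rg and Il7r at rest and joined Il4ra in the top group with LPS. In wild-type PBS Il10ra (186 ± 31.4) and Il10rb (157 ± 5.07) overlapped at the top. Il4ra (93.4 ± 11.5) and Il2rg (92.4 ± 8.28) overlapped next, followed without overlap by Il7r (60.4 ± 8.05) and Il15 (37.5 ± 2.35). Il10 (8.09 ± 1.15), Il13ra1 (6.21 ± 0.980) and Il15ra (4.67 ± 0.657) formed an overlapping low group above Il19. Fes-/- PBS libraries gave the same order but for Il2rg (103 ± 8.08) above Il4ra (79.6 ± 9.34), which did not overlap there, and for a gap between Il13ra1 and Il15ra.

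In wild-type LPS Il10 (656 ± 136), Il4ra (595 ± 173) and Il15 (526 ± 20.5) overlapped at the top and Il10ra (311 ± 21.03) followed. Il15ra (152 ± 17.6) and Il2rg (149 ± 9.16) overlapped, and Il10rb (124 ± 8.86), Il13ra1 (71.7 ± 12.6), Il19 (42.9 ± 8.20) and Il7r (17.3 ± 2.88) came after them without overlap. In Fes-/- LPS the top group was Il10 (580 ± 74.4), Il15 (525 ± 6.64), Il4ra (447 ± 140) and Il10ra (336 ± 27.1), each overlapping the next. There Il2rg (147 ± 9.75) lay above Il15ra (120 ± 11.8) without overlap, and Il15ra overlapped Il10rb (115 ± 5.78).

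Variation within a group was partly shared between members. Of the 9 members other than Il19, wild-type LPS replicate 2 had the highest TPM of its group for 7 (Il10, Il10rb, Il15, Il15ra, Il4ra, Il13ra1 and Il7r) and the lowest for the other 2, Il10ra and Il2rg. Fes-/- LPS replicate 2 had the lowest TPM for 7 (Il10, Il10rb, Il15ra, Il2rg, Il4ra, Il13ra1 and Il7r) and the highest for Il10ra and Il15. The members are therefore not independent measurements of a genotype difference.

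Between genotypes, 0 of 10 members were called by edgeR under PBS and 0 under LPS, with 0 and 1 at an unadjusted p under 0.05 (3.83% and 6.52% of all tested genes), and DESeq2 called 0 in both. The median log2 difference was -0.13 over the 9 members other than Il19 under PBS and -0.11 over all 10 under LPS, beside 0.00 over all tested genes in each. Leaving aside Il19 under PBS, where it had 1 count in all, each member's 95% interval lay within 2-fold either way under both treatments. Such an interval was also found for 77.8% of all tested genes under PBS and 74.1% under LPS. Under PBS the largest differences were those of Il4ra, Il10ra (-0.27 ± 0.14, unadjusted p = 0.0634) and Il7r (-0.27 ± 0.14, unadjusted p = 0.0650), each with adjusted p = 0.975. Il10rb was bounded most narrowly, from -0.27 to 0.07 under PBS and from -0.29 to 0.05 under LPS. These intervals do not show that the genotypes are alike.

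**Figure D4:**
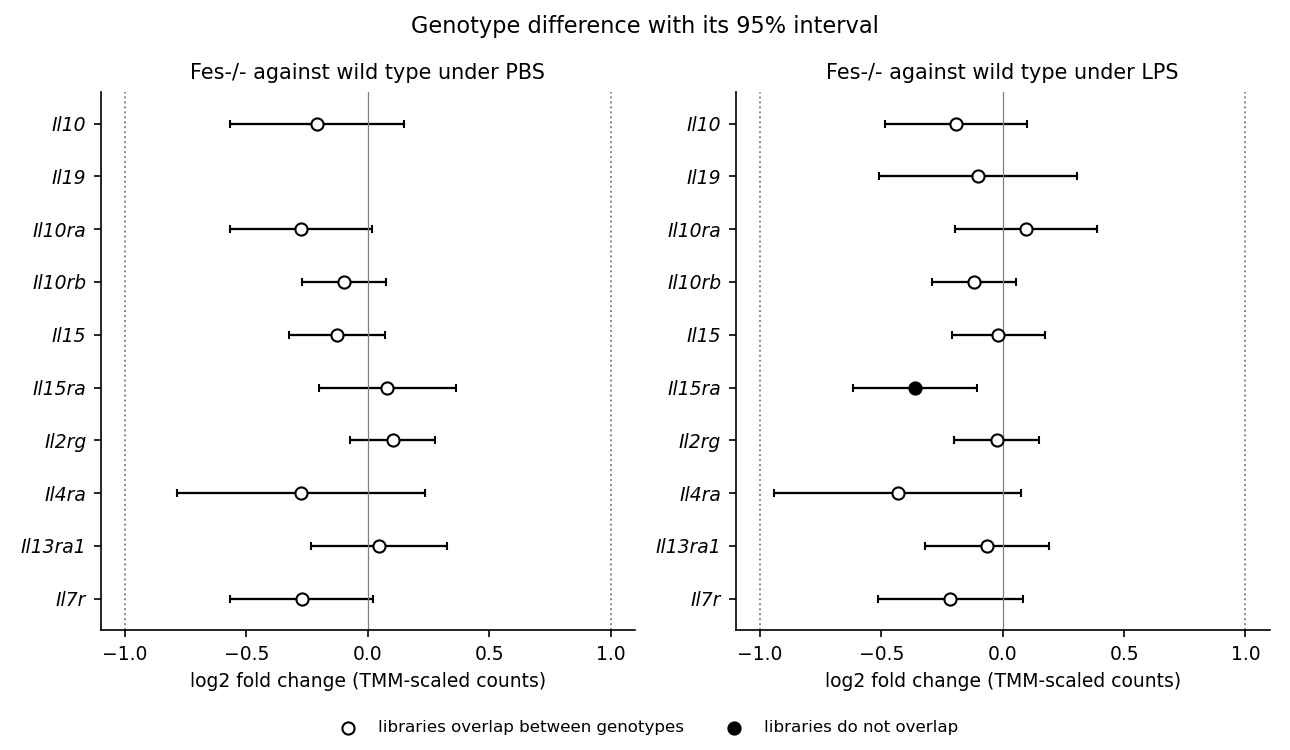
Points give the log2 fold change of Fes-/- over wild type under PBS (left, 9 genes) and LPS (right, 10 genes), bars the 95% interval and dotted lines a 2-fold difference. All intervals lie inside the dotted lines, and Il15ra under LPS, at -0.36, is the only filled point, which marks libraries that did not overlap between genotypes. Of all tested genes 77.8% under PBS and 74.1% under LPS had an interval inside these lines, and the share without overlap was not counted.

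In the interaction 1 member, Il15ra, had an unadjusted p under 0.05 and DESeq2 called 0. Besides Il15ra, the largest fitted interactions of the 9 members other than Il19 were Il10ra (0.37 ± 0.19) and Il4ra (-0.16 ± 0.33), and that of Il10 was near 0. Taken pair by pair, LPS over PBS libraries of the same number, the log2 change of Il15ra was 5.89 to 6.07 in wild type and 5.27 to 5.85 in Fes-/- macrophages, which did not overlap. For Il10 the pairs ran from 6.90 to 7.68 in wild type and from 7.23 to 7.40 in Fes-/- macrophages, which did. An exact two-sided permutation test of 3 pairs against 3 can give no p under 0.1. The share of all tested genes whose pairs separate in this way was not counted.

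**Figure D5:**
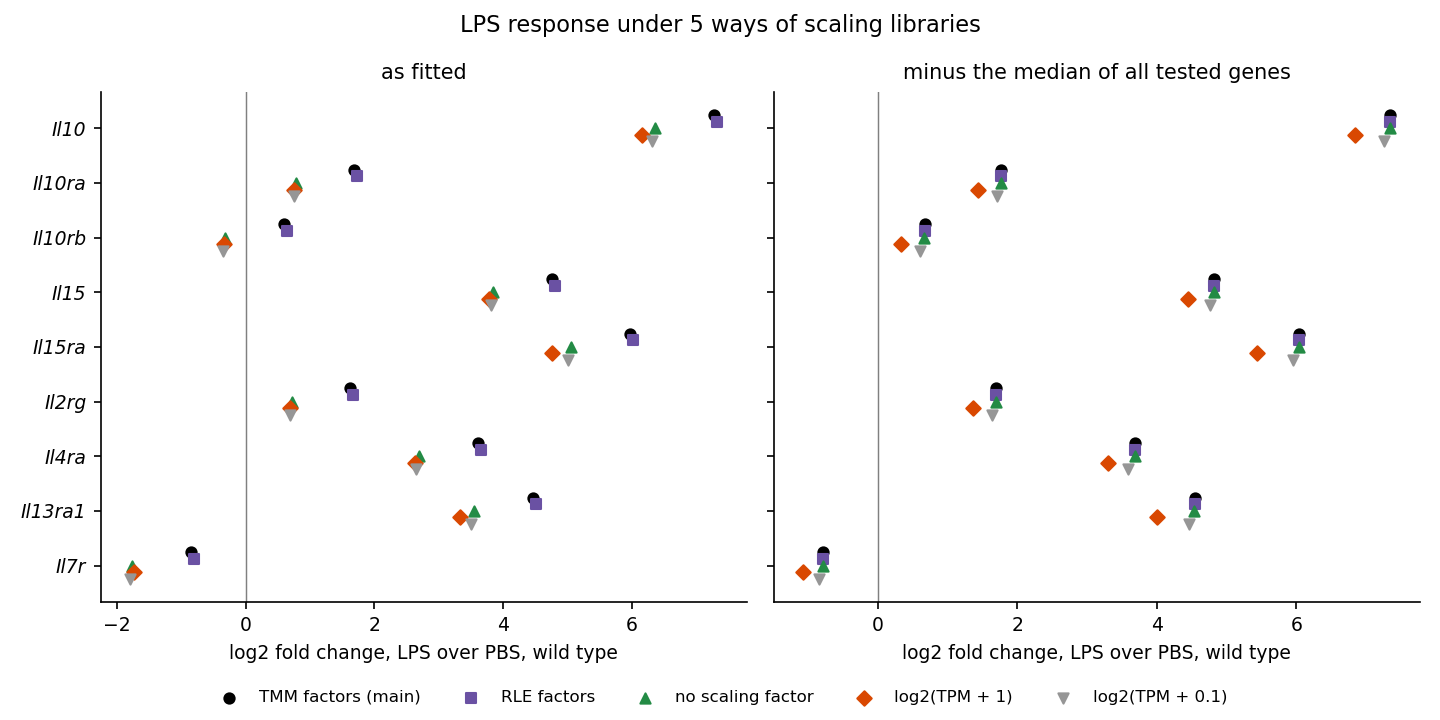
Points give the log2 change of 9 genes with LPS in wild-type macrophages under 5 ways of scaling libraries, as fitted (left) and after subtracting the median of all tested genes (right). On the left Il10rb lies above 0 with TMM or RLE factors and below 0 without factors and on TPM, and on the right, where the subtraction cancels library factors by construction, it is at 0.33 to 0.67.

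The other genes of these pathways were read from 7 lists of 68 genes, chosen with earlier results of these data known, of which 54 were tested. Il20, Ccl17 and Ifnb1 met the filter only through LPS libraries, so that their differences were fixed by it, and Il2 met it in neither treatment alone. Of the other 50 genes, 41 rose with LPS, 4 fell and 5 were not called in wild type, and 40 rose, 5 fell and 5 were not called in Fes-/- macrophages. Without TMM factors these counts were 35, 10 and 5 in wild type and 34, 12 and 4 in Fes-/- macrophages, and on log2(TPM + 1) they were 33, 12 and 5 and 32, 12 and 6. None of the 54 was called between genotypes or in the interaction by edgeR in the main test. There 3 under PBS, 6 under LPS and 2 in the interaction had an unadjusted p under 0.05, beside 3.83%, 6.52% and 2.94% of all tested genes. Without a filter 5 of the 50 were called lower and 0 higher in Fes-/- macrophages under PBS, and 2 lower and 1 higher under LPS. That fit called 315 genes in all under PBS and 358 under LPS.

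Among 8 other IL-10 family genes, Il20rb and Il20 were tested. Il20rb, the receptor chain through which IL-19 and IL-20 signal, went from 1.93 ± 0.58 to 14.1 ± 1.68 CPM in wild type (2.86 ± 0.19, adjusted p = 3.79e-09) and from 1.96 ± 0.175 to 16.2 ± 2.14 CPM in Fes-/- macrophages. Il20ra, its usual partner, had 1 count over the 12 libraries. The cytokine gene Il20 had 0 counts with PBS in each genotype and 20 and 51 with LPS in wild type and Fes-/- macrophages. Il22, Il24, Il22ra1, Il22ra2 and Ifnlr1 were below the filter, at 0.0890 CPM or less in every library.

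Of 13 other ligands and receptors of the common gamma chain and IL-13 systems, 6 were tested, and of the 5 other than Il2, 4 rose and 1 fell in both genotypes with TMM factors. Il2ra, the chain that gives the IL-2 receptor its high affinity, rose from 0.12 to 20.2 ± 6.68 CPM in wild type (7.41 ± 0.36, adjusted p = 4.92e-10) and from 0.15 to 11.4 ± 3.21 CPM in Fes-/- macrophages (6.25 ± 0.35, adjusted p = 2.04e-09). Under LPS its libraries stood at 14.1, 27.3 and 19.3 CPM in wild type and 13.9, 7.81 and 12.6 CPM in Fes-/- macrophages, which did not overlap (-0.82, unadjusted p = 0.00439, adjusted p = 0.615). Il7 rose from 0.25 to 3.61 ± 0.43 CPM and Tslp from 0.29 to 1.15 ± 0.24 CPM in wild type. Crlf2 rose with TMM factors (0.66 ± 0.08 in wild type, 0.70 ± 0.08 in Fes-/- macrophages) and was called lower without factors (-0.26 and -0.23) and on TPM.

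Of this group Il21r fell, from 19.9 to 13.7 CPM in wild type (-0.54 ± 0.11, adjusted p = 0.000411) and from 21.3 to 11.9 CPM in Fes-/- macrophages. Il2, at 0.253 CPM or less in every group mean, was called only in Fes-/- macrophages (adjusted p = 0.0434, against 0.081 in wild type). Il2rb, the chain that IL-15 needs for signalling, had 16 counts over the 12 libraries and at most 0.0890 CPM in any of them. Il4 had 6 counts, Il13 5, Il21 1 and Il13ra2 1, and Il9 had none. Il21r and Il2 were named after their values were seen, as were the genes given below as fallen or not called.

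Of the 9 JAK and STAT genes through which these receptors signal, 8 rose in both genotypes with TMM factors, and 6 and 5 were called higher and 2 lower in wild type and Fes-/- macrophages without them. Jak2 rose most, from 36.5 ± 1.45 to 1426 ± 196 CPM in wild type (5.29 ± 0.12) and from 34.2 ± 3.02 to 1291 ± 80.0 CPM in Fes-/- macrophages. Stat5a, a mediator of IL-2, IL-7 and IL-15, went from 27.7 ± 3.12 to 477 ± 57.5 CPM (4.104 ± 0.13), and Stat3, the mediator of IL-10, from 112 ± 13.5 to 760 ± 67.6 CPM (2.76 ± 0.11) in wild type. Tyk2 rose by 1.69 ± 0.09 and 1.88 ± 0.09 in the 2 genotypes.

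Smaller log2 differences were measured for Jak1, Stat5b, Jak3 and Stat6. Jak1 rose by 1.16 ± 0.11 and 1.04 ± 0.11 and Stat5b by 1.02 ± 0.07 and 1.00 ± 0.07 with TMM factors, and on TPM neither was called. Jak3, the kinase bound to the common gamma chain, was higher by 0.60 ± 0.11 and 0.50 ± 0.11 with TMM factors and called lower without factors (-0.31 and -0.44) and on TPM. Stat6, the mediator of IL-4 and IL-13, averaged 202 ± 7.81 and 185 ± 1.70 CPM in wild type, which was not called (-0.13 ± 0.07, adjusted p = 0.0996), and fell from 211 ± 11.7 to 181 ± 2.06 CPM in Fes-/- macrophages (-0.22 ± 0.07, adjusted p = 0.00717). The latter call ended without Fes-/- PBS replicate 1 (adjusted p = 0.0658) or 2 (0.059), and without TMM factors Stat6 was called lower in wild type as well (-1.04).

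Of 8 genes that IL-10 and STAT3 induce in macrophages, 7 rose in both genotypes. Il1rn, which encodes the IL-1 receptor antagonist, went from 18.0 ± 3.91 to 4513 ± 602 CPM in wild type (7.97 ± 0.23) and from 23.0 ± 5.00 to 4199 ± 303 CPM in Fes-/- macrophages. Zfp36, which encodes the mRNA-destabilising protein tristetraprolin, went from 97.8 ± 15.5 to 3160 ± 122 CPM in wild type. Nfil3, a repressor of Il12b, reached 79.3 ± 6.57 CPM from 5.46 ± 0.46, and Etv3, another repressor, 941 ± 70.6 CPM from 101 ± 1.20. Ddit4 was not called with TMM factors (0.10 ± 0.38 and -0.62 ± 0.38). Without factors 7 of the list were called higher in each genotype, and 1 was called lower in Fes-/- macrophages.

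The 11 genes usually induced by IL-4 and STAT6 did not move as a block. Leaving out Ccl17, of 9 tested 6 rose, 1 fell and 2 were not called in wild type, and 5, 1 and 3 in Fes-/- macrophages, with TMM factors. With Ccl17 these counts were 7, 1 and 2 in wild type and 6, 1 and 3 in Fes-/- macrophages. Without factors they became 6, 2 and 2 in wild type and 6, 3 and 1 in Fes-/- macrophages, so calls named below depend on scaling. The 4 with the smallest p were the feedback inhibitor genes Socs1, from 0.85 ± 0.14 to 464 ± 66.2 CPM, and Cish, from 0.75 ± 0.32 to 79.7 ± 8.23 CPM, the chemokine gene Ccl22, from 0.14 ± 0.042 to 102 ± 48.0 CPM, and the transglutaminase gene Tgm2, from 99.2 ± 18.4 to 493 ± 35.7 CPM in wild type. The lectin gene Clec10a fell from 19.2 to 7.66 CPM in wild type (-1.32 ± 0.25, adjusted p = 0.00041). With TMM factors Arg1, the arginase gene of IL-4-treated macrophages, stayed at 0.166 and 0.257 CPM without a call, and Mrc1 averaged 1107 and 967 CPM without a call. Retnla had 1 count over the 12 libraries. With these factors Chil3 was called higher in wild type (0.54 ± 0.19, adjusted p = 0.0199) and not in Fes-/- macrophages (0.21 ± 0.19, adjusted p = 0.337), and none of these genes was called in the interaction.

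Of 10 regulators of Il10 transcription, 8 were higher in both genotypes with TMM factors and 6 without them. In each genotype 1 was called lower with the factors and 3 without them. Dusp1, a phosphatase that ends MAP kinase signalling, went from 17.7 ± 1.57 to 1536 ± 158 CPM (6.44 ± 0.14), Batf from 2.695 ± 0.40 to 48.3 ± 2.35 CPM (4.16 ± 0.15), Nfkb1 from 108 ± 1.61 to 1445 ± 44.8 CPM (3.74 ± 0.08) and Map3k8, the kinase TPL2, from 21.3 ± 3.27 to 277 ± 14.1 CPM (3.70 ± 0.12) in wild type. Rps6ka5, which encodes the kinase MSK1, fell in both (-1.02 ± 0.10 and -1.03 ± 0.10), and Maf, an activator of Il10, was not called with TMM factors (-0.18 ± 0.11 and 0.12 ± 0.11).

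Of 8 interferon pathway genes that act upstream of Il15 and Il15ra, leaving out Ifnb1, 7 rose and Irf3 fell in both genotypes, with or without TMM factors. On log2(TPM + 1) the 9 genes with Ifnb1 gave 8 higher, 1 lower and 0 not called in wild type. In Fes-/- macrophages they gave 7, 1 and 1. Irf1 went from 56.5 ± 4.99 to 592 ± 52.4 CPM (3.39 ± 0.11), Nlrc5, the activator of MHC class I genes, from 61.1 ± 3.84 to 850 ± 85.9 CPM (3.799 ± 0.14), the interferon receptor gene Ifnar1 from 115 ± 15.0 to 548 ± 92.0 CPM (2.26 ± 0.13) and Irf9 from 76.7 ± 6.28 to 193 ± 2.75 CPM (1.33 ± 0.09) in wild type. Irf3 went from 36.3 to 22.0 CPM (-0.72 ± 0.08, adjusted p = 1.47e-06).

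For each member the genes with the most similar pattern were sought among 10779 genes, by the root mean square (RMS) difference of log2 CPM over the 12 libraries after each gene was centred on its own mean. Il10 was nearest to Nt5c1a (0.198), which had 0 CPM in wild-type PBS so that its distance rests on the prior count, and to Lcn2 (0.253), the gene of the iron-scavenging protein lipocalin 2. Il19 was nearest to Socs3 (0.290), the feedback inhibitor induced by IL-10, and to the adenosine receptor gene Adora2a (0.340). Il19 itself had 0 or 1 counts in each PBS library, so these 2 distances rest on the prior count as well. Il15 was nearest to Cflar (0.113), which encodes the caspase-8 inhibitor c-FLIP, and to Tnfaip2 (0.118). Il15ra was nearest to Malt1 (0.147), a protease gene of NF-kB signalling, and to the interferon-inducible gene Ifi214 (0.164).

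Of the remaining members, Atxn7l3b was near Il10rb (0.0576), and Il2rg was nearest to Myo1g (0.0603), a myosin gene of blood cells, and Spi1 (0.0887), which encodes the macrophage transcription factor PU.1. Il10ra was nearest to Rassf4 (0.112) and Sertad3 (0.126), and Il13ra1 to Ext1 (0.0872), a heparan sulfate polymerase gene, and Kremen1 (0.148). Il4ra was nearest to Tle3 (0.181) and Arhgap26 (0.204), and Il7r to the long noncoding RNA gene Firre (0.0983) and to Camsap2 (0.103). A small distance says only that levels moved alike over these 12 libraries, most of which is the step between PBS and LPS.

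In the annotation the members lie on 8 chromosomes. Il10 (GRCm38 chromosome 1, 131019845 to 131024974) and Il19 (130932656 to 130940115) lie close together on chromosome 1, on opposite strands. Il10ra is on chromosome 9, Il10rb on 16, Il15 on 8, Il15ra on 2, Il7r on 15, Il4ra on 7, and Il2rg and Il13ra1 are on X. Exons of the gene models Gm21970 and Gm20489 overlap those of Il10rb and Il2rg and had 0 counts, and the antisense model Gm44876, which overlaps Il4ra, had at most 3 counts in a library.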

How the data were processed

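Raw counts per Ensembl gene and TPM values, 1 column per library, were used as deposited by the authors. Per the submitters' processing notes the tools were DESeq2 1.34.0, Picard 2.9.0 and the aligner STAR 2.7.8a, under R 4.1.12, and the builds GRCm38 and mm9 are listed without roles; the counting program and strand setting are not given in the sources used here. Lengths implied by counts and TPM lay within 1% of GENCODE M21 (GRCm38) for 9349 of 9487 genes (98.5%) with at least 100 counts in every library. The same held for all 10 members in every library where they had a count, so positions come from it.

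Counts were fitted in R 4.3.3 with edgeR 4.0.16: filterByExpr over 4 groups, TMM factors, 1 mean per group, robust quasi-likelihood, 8 residual degrees of freedom, two-sided tests. There were 5 comparisons. The test was checked on simulated counts. P-values measure the spread between libraries of 3 mice per genotype. Same-numbered PBS and LPS libraries of a genotype correlated in their deviations from group means (0.25 to 0.42 over 8260 genes). Differently numbered ones gave -0.32 to 0.12, so numbers were taken to pair treatments within a genotype. Across genotypes same-numbered libraries correlated negatively. Some differently numbered ones there reached 0.52 (wild-type LPS 2 with Fes-/- LPS 3) and 0.50 (wild-type LPS 3 with Fes-/- LPS 2). Correlations of this size thus also arise between different mice and do not prove the pairing. No library was a copy of another. Receptor ratios were tested by exact permutation. Alternatives were DESeq2 1.42.0, RLE factors, no factors, no filter, 1 CPM in 3 libraries, 6 libraries alone, limma 3.58.1 on log2 TPM, the replicate block and each library left out. All members were named, with Fes, the JAK and STAT genes, up to 4 called genes with the smallest p per other list, and the 2 nearest patterns per member; 2 genes that this rule names are not reported here. Members and lists were chosen with earlier results of these data known.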

Additional observations from a re-analysis of the deposited data

How the results depend on the processing

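The LPS calls of the members held under DESeq2, RLE factors, both other filters, the 6 libraries alone, the replicate block and each library left out, with 8 higher and 1 lower in both genotypes beside Il19. Without factors, on log2(TPM + 1) and on log2(TPM + 0.1) 2 members were lower, because Il10rb turned to -0.319, -0.3465 and -0.3488 in wild type and to -0.3575, -0.3944 and -0.3971 in Fes-/- macrophages. In the same order Jak3 turned to -0.3111, -0.3251 and -0.3348 and to -0.437, -0.4658 and -0.4817, and Crlf2 to -0.2554, -0.2826 and -0.2841 and to -0.2314, -0.268 and -0.2695. On log2(TPM + 0.1) 2535 genes were higher and 10993 lower in wild type, and 2455 and 11224 in Fes-/- macrophages. With the replicate block within each genotype, where the numbers were taken to pair treatments, 11862 and 11877 genes were called with LPS in wild type and Fes-/- macrophages and 4 in the interaction, and no call of a member changed. Between genotypes, where the numbers are only shared and pair no mice, a block by number gave 12 calls under PBS and 12 under LPS.

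Between genotypes 13 genes were called under PBS, 33 with DESeq2 and 315 without a filter; under LPS 17 were called, 37 with DESeq2 and 358 without a filter, among them 1 member, Il4ra (-0.4048). In the interaction 3 genes were called, 5 with DESeq2, 90 without a filter, 6 on log2(TPM + 1) and 5 on log2(TPM + 0.1). The causes were not tested. Differences near 0 changed sign: under LPS Il15 was 0.01438 and Il2rg 0.00673 without a filter, and in the interaction Il10rb was 0.02419 without a filter and Il10 -0.002962 without factors, -0.03419 on log2(TPM + 1) and -0.01984 on log2(TPM + 0.1).

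With each library left out in turn, genotype differences crossed 0 under PBS for Il15ra (-0.01567 to 0.1943) and Il13ra1 (-0.06279 to 0.1604), and under LPS for Il19 (-0.2727 to 0.07174), Il15 (-0.04131 to 0.02212), Il2rg (-0.07456 to 0.02497) and Il13ra1 (-0.1451 to 0.09729). The interaction crossed 0 for Il10 (-0.09436 to 0.2082), Il10rb (-0.05266 to 0.05058), Il4ra (-0.404 to 0.1158), Il13ra1 (-0.2242 to 0.05358) and Il7r (-0.04224 to 0.2062). The log2 ratio of Il2rg to Il13ra1 differed between genotypes by -0.1447 to 0.2064 under PBS and -0.1664 to 0.1382 under LPS, and that of Il15ra to Il2rg by -0.1066 to 0.05994 under PBS. The fall of Stat6 in Fes-/- macrophages was -0.2575 to -0.1694.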
